A study of Drosophila melanogaster with 7 samples.

Results

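A set of 54 genes was lower in the fat body in each of 3 RasV12 replicates than in each of 3 controls. The set was taken from 14804 genes listed for every library, of which 7575 had an FPKM (fragments per kilobase of transcript and per unit of library depth) that averaged 1 or more. A gene was kept where its highest value in the RasV12 replicates lay below its lowest value in the controls, and where the mean of log2(scaled FPKM + 1) was lower by more than 1. Scaling brought the 75th percentiles of the libraries to a common level. Genes whose names start with Jon, Cpr, Lcp, Cyp or Sgs were left out, which removed Jon65Aiv, Jon25Bi, Cyp4p3, Cyp4d20 and Cyp6a21. The 54 genes were 0.713% of the genes considered, and 0.779% with the 5 names added back. Because the values of these same libraries chose the genes, their levels are given as a description and no p-value is attached to any of them.

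RNA came from fat bodies of wandering larvae, 40 larvae pooled for each sample, with gonads excluded and no treatment given. Control larvae were offspring of Bx-GAL4 flies crossed to W1118, and RasV12 larvae were offspring of Bx-GAL4 flies crossed to UAS-RasV12, so that both groups carried the driver. Bx-GAL4 expresses the dominant-active Ras in wing imaginal discs and salivary glands, not in the fat body that was sampled. Control replicate 3 was sequenced as run 3A, used here, and again as a shallower run 3B. Confidence bounds implied 2910838 fragments for control replicate 3 and 4649422 to 7328089 for the other 5 libraries.

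The larval fat body takes up nutrients from the hemolymph, stores them as glycogen and triglyceride, and releases sugar, lipid and protein to other tissues, which makes it the counterpart of liver and adipose tissue. It is also the main source of antimicrobial peptides. Glycolysis breaks sugar down to pyruvate. Stored triglyceride is opened by lipases, and the fatty acids are then oxidized in mitochondria and peroxisomes.

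All 10 fat body markers examined (larval serum proteins, Fbp1, Fbp2 and Adh among them) were above 0 in each library, with summed levels of 119092 to 178244 scaled FPKM in controls and 69702 to 121032 in RasV12 replicates. Salivary gland markers summed to 7.40 to 23.7 in controls and 7.36 to 11.7 in RasV12 replicates. Larval midgut markers summed to 191 to 978 and 150 to 265. Most of that sum came from CG30360 in RasV12 replicates 1, 2 and 3 (158, 254 and 136 scaled FPKM). CG30360 read 113, 91.1 and 212 across controls 1, 2 and 3. Jon65Aiv and yip7 reached 316 and 119 in control replicate 1, 34.0 and 11.4 in control replicate 2, and at most 1.74 elsewhere. Of 15 tested midgut markers 12 had a lower mean in RasV12 and 3 a higher one. Testis markers were higher in RasV12 replicates, at 13.4 to 227 scaled FPKM summed, against 0 to 9.09 in controls, where control replicate 3 had all 15 markers at 0. Hemocyte markers summed to 16.6 to 86.0 in controls and 51.0 to 150 in RasV12 replicates. CG8193 was a large part of the highest sums, at 5.24, 44.9 and 14.4 in controls 1, 2 and 3 and 1.14, 5.70 and 68.2 in RasV12 replicates 1, 2 and 3. Of 8 tested hemocyte markers 6 had a higher mean in RasV12 and 2 a lower one. Pxn, eater and Sr-CI were higher in each RasV12 replicate than in each control, as were 7.67% of all genes considered. Muscle markers summed to 51.7 to 119 and 22.2 to 68.1. The part of these other tissues in the levels below was not tested, and in bulk samples fewer cells of a type and less RNA per cell cannot be told apart.

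Among the 54 genes the ratio of the control mean to the RasV12 mean had a median of 2.94 and started at 1.78. No upper end is given, since 3 genes rested on at most 3 fragments in each RasV12 replicate. Their mean log2 differences (RasV12 minus control, of log2(scaled FPKM + 1), called the log2 difference from here on) ran from -4.17 to -1.04, with a median of -1.39, whereas the median over all 7575 genes was 0.00. The mirrored criteria found 169 genes that were higher in every RasV12 replicate, 2.23% of the genes considered. Of the 54 genes, 21 had a control mean of at least 100 scaled FPKM, 21 lay between 10 and 100, and 12 lay under 10. A control mean of at least 100 scaled FPKM was found for 38.9% of the set and 11.8% of the genes considered. The choice itself favours high control values, and a difference over 2-fold on this scale is harder to reach for genes at low levels. No conclusion on abundance is drawn from these shares. The groups were well apart for some genes and close for others, since the lowest control was at least 1.5 times the highest RasV12 replicate in 23 genes and under 1.1 times in 12. For 29 genes the confidence bounds of the values did not overlap between groups. The choice of genes with every RasV12 value below every control favours this. The share over all genes was not worked out.

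**Figure D1:**
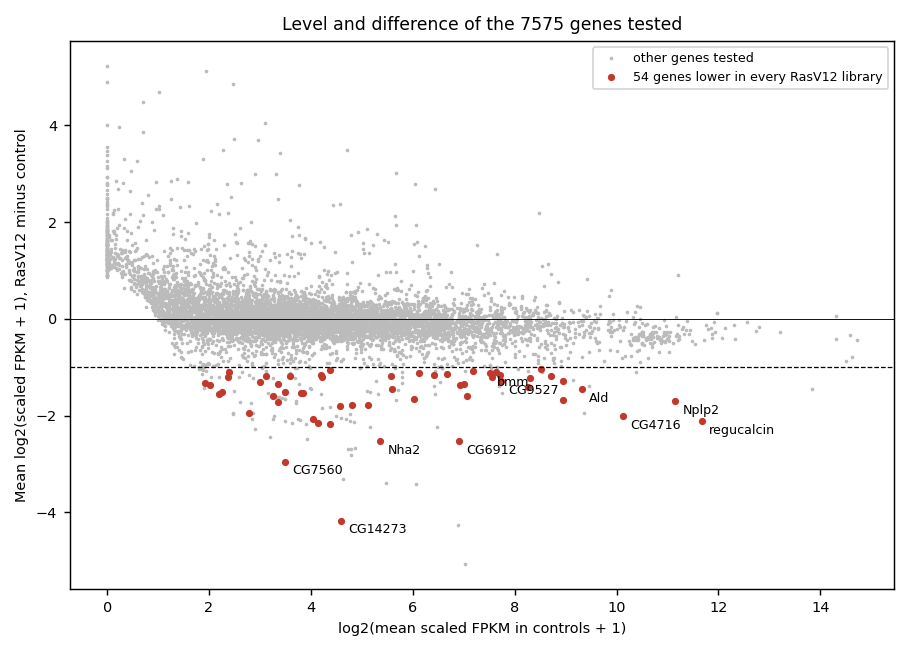
Each point is 1 of the 7575 genes considered. The x axis gives the control level as log2(mean scaled FPKM + 1), and the y axis the log2 difference (RasV12 minus control). The 54 genes (red) lie below the dashed line at -1 and span control levels from 2.77 scaled FPKM for rtet to 3258 for regucalcin. Grey points below the line overlapped between groups or carried one of the excluded name starts.

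Enzymes of sugar and pyruvate metabolism formed a group of 6 genes with log2 differences of -1.60 to -1.10. Without scaling only Ald and CG9399 of the 6 met the criteria. Ald, fructose-bisphosphate aldolase of glycolysis (FBgn0000064, chromosome 3R, 22080404 to 22087313 in the BDGP5 coordinates of the authors' annotation), had 604, 724 and 592 scaled FPKM in the controls and 199, 156 and 399 in the RasV12 replicates. The values of each group are listed in the order of replicates 1, 2 and 3 here and for all genes below. All 3 RasV12 replicates lay under all 3 controls, with replicate 3 the highest of them, and the mean was 640.1 ± 72.5 scaled FPKM in the controls and 251 ± 129 in RasV12 (SD, n = 3), a log2 difference of -1.46.

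Tpi, triosephosphate isomerase, which acts directly after aldolase (chromosome 3R, 25958698 to 25960321), had 259, 385 and 293 scaled FPKM in the controls and 129, 97.1 and 181 in the RasV12 replicates. Again RasV12 replicate 3 came nearest to the controls without reaching them, and the log2 difference was -1.22. Pglym78, a phosphoglycerate mutase of lower glycolysis (chromosome 3R, 24973970 to 24975623), read 178, 239 and 172 scaled FPKM in the controls and 85.9, 59.2 and 143 in the RasV12 replicates. Its log2 difference of -1.10 was among the 5 nearest to the limit of the set. Phosphoglucomutase, Pgm, which links glycogen to the glycolytic intermediate glucose-6-phosphate (chromosome 3L, 16119155 to 16121696), showed 192, 251 and 185 scaled FPKM in the controls and 75.1, 62.6 and 163 in the RasV12 replicates. Its RasV12 replicates 1 and 2 kept 35.9% and 29.9% of the control mean, whereas replicate 3 kept 77.9%.

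The other pair of this group handles pyruvate. CG1640, listed as ALT (alanine aminotransferase, which interconverts alanine and pyruvate), had 105, 202 and 92.1 scaled FPKM in the controls and 32.8, 23.4 and 85.5 in the RasV12 replicates. Control replicate 2 stood well above the other controls for this gene, and RasV12 replicate 3 was close below the lowest of them. CG9399, listed as dMPC2 for a carrier of pyruvate into mitochondria, was much less abundant and had 19.6, 10.6 and 10.04 scaled FPKM in the controls and 5.77, 1.58 and 5.24 in the RasV12 replicates, with a log2 difference of -1.53. Here control replicate 1 was the high one.

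The other enzymes of glycolysis were examined through a list of 14 names, of which 12 were abundant enough to be tested. The mean was lower in RasV12 for all 12 (49.7% of all genes considered), with a median log2 difference of -0.82 and a range of -1.46 to -0.32. Since the lists were chosen with results of these libraries known, their direction is not independent evidence. Only Ald, Tpi and Pglym78 met the criteria of the set, although 6 of the 12 were separated between groups at any size of difference, against 7.08% of all genes considered. No gene of the list was separated in the higher direction, against 7.67% of all genes. None of the 12 passed limma at an adjusted p under 0.05 with a change over 2-fold, which 0.0264% of all genes did in the lower and 0.0792% in the higher direction. At an unadjusted p under 0.05 and over 2-fold the list had 4 lower genes and 0 higher ones, and all genes 0.964% and 2.32%. The list includes 3 genes of the set, chosen on this same contrast, so the count of 4 is not separate evidence. The mean was lower for 12 genes also without scaling and with median of ratios scaling, and for 11 of 12 with RasV12 replicate 2 left out.

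In this pathway 10, 11 and 8 of the 12 genes lay below the lowest control in RasV12 replicates 1, 2 and 3. The shares over all genes considered were 27.6%, 31.2% and 22.6%. Pgi, the isomerase above phosphofructokinase, had 170, 230 and 153 scaled FPKM in the controls and 78.6, 56.7 and 159 in the RasV12 replicates. For Eno, enolase, the controls had 334, 436 and 279 scaled FPKM and the RasV12 replicates 175, 141 and 330. In both genes RasV12 replicates 1 and 2 were below every control, whereas replicate 3 fell within the control range. With RasV12 replicate 3 left out, 8 of the 12 genes met the criteria (Ald, Eno, Gapdh2, Pfk, Pgi, Pgk, Pglym78 and Tpi). Over all genes 207 of 7592 did then, where fewer libraries had to be apart. Hex-A, a hexokinase, did not follow this order, with 59.8, 62.6 and 50.8 scaled FPKM in the controls and 71.5, 28.4 and 46.8 in the RasV12 replicates.

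**Figure D2:**
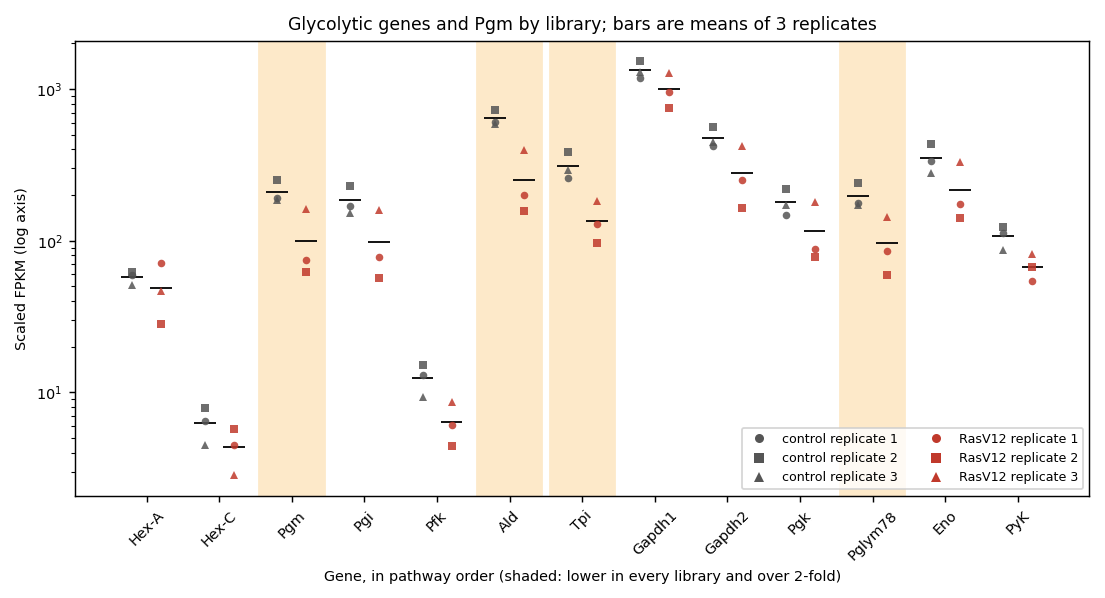
Scaled FPKM (log axis) of 12 glycolytic genes and Pgm in pathway order, 1 point for each library, with the mean of 3 replicates as a bar. Grey points are controls and red points RasV12 replicates, with the replicate number given by the shape. Shaded genes belong to the 54, among them Ald at 592 to 724 in controls and 156 to 399 in RasV12 replicates, and in the unshaded genes Pgi and Eno RasV12 replicate 3 (triangle) lies within the control range.

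Genes of lipid breakdown and phospholipases were 5 of the 54, with log2 differences of -1.29 to -1.04. Without scaling only CG9527 of the 5 met the criteria, and 3 of the 5 (CG9527, GIIIspla2 and iPLA2-VIA) did with control replicate 2, RasV12 replicate 1 or RasV12 replicate 2 left out. Brummer (bmm), the triglyceride lipase of lipid droplets related to mammalian ATGL (chromosome 3L, 14769596 to 14779523), had 143, 220.2 and 184 scaled FPKM in the controls and 66.9, 63.5 and 129 in the RasV12 replicates. The mean was 182 ± 38.8 scaled FPKM in the controls and 86.6 ± 37.1 in RasV12 (SD, n = 3), a log2 difference of -1.12. CPTI, named whd in the newer annotation, is the carnitine palmitoyltransferase that lets long-chain fatty acids enter mitochondria (chromosome 2R, 6356978 to 6366073), and had 307, 388 and 397 scaled FPKM in the controls and 158, 148 and 232 in the RasV12 replicates. RasV12 replicates 1 and 2 were the lowest for both genes, and the log2 difference of CPTI was -1.04, the nearest to the limit among the 54.

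CG9527 is annotated as Acox3, an acyl-CoA oxidase, the enzyme class that opens fatty acid oxidation in peroxisomes (chromosome 2L, 6445070 to 6448016). It had 209.6, 205 and 218 scaled FPKM in the controls and 86.7, 91.5 and 79.9 in the RasV12 replicates. The replicates of each group lay close together, and unlike bmm and CPTI it was lowest in RasV12 replicate 3. The mean was 211 ± 6.61 scaled FPKM in the controls and 86.02 ± 5.84 in RasV12 (SD, n = 3), and the lowest control was 2.24 times the highest RasV12 replicate.

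The 2 phospholipases A2, enzymes that release a fatty acid from a phospholipid, differ in type. GIIIspla2, a secreted group III enzyme (chromosome X, 8051580 to 8053072), had 393, 499 and 365 scaled FPKM in the controls and 139.9, 145 and 293 in the RasV12 replicates. iPLA2-VIA, a calcium-independent enzyme (chromosome 3L, 9853317 to 9857459), had 45.8, 59.03 and 35.8 scaled FPKM in the controls and 17.3, 15.3 and 28.6 in the RasV12 replicates. Both were lowest in RasV12 replicates 1 and 2 and had similar log2 differences, -1.19 and -1.18. Another enzyme of the list, sPLA2, had a higher mean in RasV12, at 380, 373 and 442 scaled FPKM in the controls and 433 to 533 in the RasV12 replicates, with overlap between groups.

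The lists of fatty acid metabolism gave few further genes that met the criteria. Of 9 tested genes of mitochondrial fatty acid oxidation 8 had a lower mean in RasV12 (median log2 difference -0.78), against 49.7% of all genes. Of 11 peroxisomal genes 9 did (median -0.43). Each list held only 1 gene of the set, to which 0.713% of all genes belonged. All 9 tested genes of fatty acid synthesis and activation had a lower mean as well (median -0.68) and none was in the set. These counts rested on RasV12 replicate 3, since without it 5 of the 9 mitochondrial, 3 of the 11 peroxisomal and 5 of the 9 synthesis genes met the criteria. Over all genes 207 of 7592 met them without it. Without control replicate 1 the mitochondrial list had 3 such genes, and without control replicate 3 the peroxisomal list had 3 and the synthesis list 1. Over all genes 85 of 7632 and 121 of 7682 met the criteria in these 2 settings. No gene of the mitochondrial and synthesis lists passed limma at an adjusted p under 0.05 and over 2-fold, and 1 of each was lower at an unadjusted p under 0.05 and over 2-fold. The peroxisomal list had 1 and 3 such lower genes. Over all genes 0.0264% and 0.964% were lower in this way. The mitochondrial and peroxisomal lists each include a gene of the set, chosen on this same contrast, so their counts are not separate evidence.

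The libraries differed in these lists. In the mitochondrial list 8 genes in RasV12 replicate 1 and 9 in replicate 2 were below the lowest control, but only 1 in replicate 3 (6 where control replicate 1 was left out). The synthesis list gave 9, 9 and 1 of 9, and the peroxisomal list 9, 9 and 1 of 11. With control replicate 3 left out the numbers in RasV12 replicate 3 were 3 and 4, and with control replicate 1 left out 3 and 2. Among all 7575 genes the shares below the lowest control were 27.6%, 31.2% and 22.6% in RasV12 replicates 1, 2 and 3. Glycolysis kept more of its genes below the controls in replicate 3 (66.7%) than these lists did, although without scaling the number in replicate 3 was 3. Whether the lists differ in this was not tested.

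Heme synthesis was represented by Alas, 5-aminolevulinate synthase, which makes the first committed precursor of heme (chromosome 2R, 19852224 to 19854271). It had 67.04, 69.6 and 55.7 scaled FPKM in the controls and 20.6, 11.02 and 31.97 in the RasV12 replicates. The mean was 64.1 ± 7.43 scaled FPKM in the controls and 21.2 ± 10.5 in RasV12 (SD, n = 3), a log2 difference of -1.66, and even the highest RasV12 replicate was well under the lowest control. Of the 8 tested genes of heme synthesis 7 had a lower mean in RasV12, with a median log2 difference of -0.30, against 49.7% of all genes. Without scaling 6 did. The median was -0.54 without RasV12 replicate 3. Alas and 1 other gene were separated between groups, against 7.08% of all genes, the other by too little for the set, at 24.9 to 39.9 scaled FPKM in the controls and 15.1 to 18.7 in the RasV12 replicates.

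CG7224, annotated as Sirup with the synonym Sdhaf4, an assembly factor of mitochondrial succinate dehydrogenase (chromosome 2L, 7998934 to 7999743), was abundant and had 498, 570.1 and 415 scaled FPKM in the controls and 121, 126 and 233 in the RasV12 replicates. Its groups were far apart, with the lowest control 1.78 times the highest RasV12 replicate and a log2 difference of -1.68. Regucalcin, a calcium-binding protein studied mainly in mammalian liver (chromosome X, 11906467 to 11911091), was the most abundant gene of the set and had 2389, 4684 and 2702 scaled FPKM in the controls and 332, 469 and 2339.6 in the RasV12 replicates. RasV12 replicates 1 and 2 kept 10.2% and 14.4% of the control mean, whereas replicate 3 kept 71.8% and lay just below control replicate 1. The log2 difference of -2.12 thus joined a pair of low libraries with one near the controls. phr, a photolyase that repairs ultraviolet damage in DNA, was rare, with 3.58, 5.51 and 8.62 scaled FPKM in the controls and 1.19, 1.31 and 0 in the RasV12 replicates, and overlaps the more abundant gene Prosalpha1. RasV12 replicate 3 was listed at 0, and the log2 difference of -1.94 came to -3.32 with 0.1 added and -0.88 with 5 added.

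The redox and conjugating enzymes counted 8 genes, with log2 differences of -2.95 to -1.17, and 5 of the 8 met the criteria without scaling and 5 with 5 added in place of 1. Jafrac1 (Prx2), a peroxiredoxin that reduces hydrogen peroxide (chromosome X, 13223881 to 13226030), had 353, 367 and 194 scaled FPKM in the controls and 97.3, 72.4 and 189 in the RasV12 replicates. Control replicate 3 and RasV12 replicate 3 differed little, and the others of each group lay far apart. GstE8, a glutathione transferase (chromosome 2R, 14295339 to 14296067), read 69.96, 139.7 and 154 scaled FPKM in the controls and 30.1, 41.8 and 65.99 in the RasV12 replicates. Its highest RasV12 replicate was again replicate 3, while control replicate 1 was the lowest of the controls. The log2 differences of the pair were -1.40 and -1.37.

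Of 15 tested glutathione transferases 11 had a lower mean in RasV12 (49.7% of all genes did), with a median log2 difference of -0.59, and GstE8 and GstE1 were separated between groups (7.08% of all genes). The family depended on the libraries used. Without RasV12 replicate 3 the criteria were met by 6 of the 15 (GstD2, GstD4, GstD6, GstD7, GstE3 and GstE8), with a median log2 difference of -1.04, and without control replicate 1 by 3 (GstD4, GstE3 and GstE8), with a median of -0.99. Over all genes 207 of 7592 and 85 of 7632 met them in these 2 settings. The median was -0.28 without control replicate 2 and -0.26 without RasV12 replicate 1. GstE1 had 106, 147 and 163 scaled FPKM in the controls and 67.7, 85.8 and 83.6 in the RasV12 replicates. GstE3 had 357, 964 and 1283 scaled FPKM in the controls and 262, 296 and 935 in the RasV12 replicates, so that the groups overlapped through control replicate 1 and RasV12 replicate 3. Genes of this family are similar in sequence, and fragments could be divided among them in the authors' estimates.

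CG7560 had the largest log2 difference of the enzymes, -2.95, with 11.2, 13.1 and 6.29 scaled FPKM in the controls and 0.441, 0 and 0.868 in the RasV12 replicates. It is annotated only as an oxidoreductase (chromosome 3L, 11418250 to 11419495), and it was close to 0 in all 3 RasV12 replicates. The log2 difference was -4.72 with 0.1 added and -1.46 with 5 added. CG11200, a short-chain dehydrogenase or reductase, had 54.9, 47.8 and 38.8 scaled FPKM in the controls and 14.5, 17.4 and 17.5 in the RasV12 replicates, with the RasV12 replicates within a narrow range. The abundant CG5167, related to saccharopine dehydrogenase by its synonym, had 456, 633 and 389 scaled FPKM in the controls and 160.3, 129 and 369.7 in the RasV12 replicates. In that gene RasV12 replicate 3 was only just under control replicate 3, unlike in CG11200.

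CG40486 had 6.45, 11.3 and 9.90 scaled FPKM in the controls and 1.12, 1.38 and 4.61 in the RasV12 replicates, a log2 difference of -1.71. The esterase CG7529 (Est-Q) had 4.04, 4.90 and 3.49 scaled FPKM in the controls and 1.34, 0.470 and 2.15 in the RasV12 replicates, both at low levels and with RasV12 replicate 3 the highest of its group. CG7529 overlaps a gene at a higher level, CG33214. Of 11 tested esterases of its list 8 had a lower mean, against 49.7% of all genes, and only CG7529 was separated, against 7.08%. Without RasV12 replicate 3, 4 of the tested esterases met the criteria (207 of 7592 genes over all). Without control replicate 3, 2 did (121 of 7682 genes over all). The remaining enzyme of the group, CG9914 (Had1), had 12.4, 22.04 and 17.5 scaled FPKM in the controls and 3.98, 9.53 and 8.66 in the RasV12 replicates.

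Membrane transporters counted 4 genes, of which CG8451 and Nha2 met the criteria with 5 added in place of 1. Nha2, a sodium and hydrogen antiporter (chromosome 3R, 18807179 to 18819283), had 41.8, 48.3 and 29.9 scaled FPKM in the controls and 5.14, 2.77 and 13.6 in the RasV12 replicates. Its mean was 39.97 ± 9.33 scaled FPKM in the controls and 7.16 ± 5.67 in RasV12 (SD, n = 3), a ratio of 5.58, and its log2 difference of -2.53 was the largest of any gene of the set with an annotated role apart from CG7560. CG8451, annotated as SLC5A11, a family of sodium-coupled solute carriers (chromosome 2L, 8200465 to 8205128), had 123, 157 and 154 scaled FPKM in the controls and 67.9, 62.7 and 73.7 in the RasV12 replicates. Both groups were tight here and clearly apart, yet the log2 difference was only -1.07.

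JhI-21, an amino acid transporter of the plasma membrane, had 3.63, 8.35 and 9.15 scaled FPKM in the controls and 3.29, 1.55 and 1.64 in the RasV12 replicates. RasV12 replicate 1 was close to control replicate 1, and the other RasV12 replicates were lower. Of 7 tested amino acid transporters 4 had a lower mean, near the 49.7% of all genes, and JhI-21 and mnd were separated between groups, against 7.08% of all genes. The fourth transporter, rtet, was rare and had 3.10, 2.81 and 2.41 scaled FPKM in the controls and 0.262, 0.648 and 0.600 in the RasV12 replicates.

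Products for secretion and the lysosome were 4 genes, with the controls of 3 widely spread. Only CG13936 met the criteria without scaling. Nplp2, neuropeptide-like precursor 2 (chromosome 3L, 13349633 to 13350328), had 3761, 1956 and 1097 scaled FPKM in the controls and 1050.5, 253 and 870.4 in the RasV12 replicates. The controls spanned more than the distance between groups, and control replicate 3 was just above RasV12 replicate 1. The same spread appeared for CG13936, the gene of the neuropeptide CNMa, which had 44.6, 12.9 and 11.2 scaled FPKM in the controls and 6.81, 1.45 and 8.56 in the RasV12 replicates. Control replicate 1 was again the highest. The list of neuron and endocrine markers summed to 124 to 152 scaled FPKM in controls and 119 to 150 in RasV12 replicates. Nearly all of each sum was Syt1, with 123 to 151 for controls and 118 to 139 for RasV12 replicates. The other markers, elav, n-syb and Akh, were all highest in RasV12 replicate 1, at 5.86, 3.55 and 1.27. Their highest values elsewhere were 1.37, 0.573 and 0.856. The part of neurons in the levels of Nplp2 and CG13936 was not tested.

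Pericardin (prc), a collagen-like matrix protein of the heart that the fat body supplies, had 7.78, 3.04 and 1.80 scaled FPKM in the controls and 1.43, 0.689 and 1.46 in the RasV12 replicates, a log2 difference of -1.10. Control replicate 1 was once more the highest. CG13822 (GILT3), of a family of lysosomal thiol reductases, had 67.1, 55.4 and 83.05 scaled FPKM in the controls and 38.7, 30.5 and 24.4 in the RasV12 replicates, with the groups apart and RasV12 replicate 3 the lowest.

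Structural, trafficking and regulatory genes were 7 of the 54, mostly at low levels. Only rab3-GEF met the criteria without scaling and only CG6129 with 5 added in place of 1, while 3 of the 7 (CG18594, Lim3 and rab3-GEF) did with RasV12 replicate 1 left out. Act57B, a muscle actin (chromosome 2R, 16831533 to 16833945), had 10.6, 11.7 and 30.6 scaled FPKM in the controls and 1.96, 10.2 and 10.4 in the RasV12 replicates. RasV12 replicate 1 was far below the rest, and the other RasV12 replicates were only just under controls 1 and 2. The summed muscle markers, Act57B included, had 51.7, 69.7 and 119 scaled FPKM in the controls and 22.2, 58.2 and 68.1 in the RasV12 replicates. Of 11 tested muscle markers 10 were below the lowest control in RasV12 replicate 1, 4 in replicate 2 and 1 in replicate 3. These shares were 90.9%, 36.4% and 9.09%, against 27.6%, 31.2% and 22.6% of all genes considered. The part of muscle in the Act57B values was not tested. CG6129, annotated as Root (rootletin, of ciliary rootlets), was the abundant gene of the group and had 109, 102 and 90.8 scaled FPKM in the controls and 33.2, 39.6 and 68.8 in the RasV12 replicates.

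For 3 genes the difference rested on a value of 0 in a single library. sec5, a subunit of the exocyst, had 13.2, 13.7 and 12.3 scaled FPKM in the controls and 0, 9.14 and 10.2 in the RasV12 replicates, and CG33260, annotated as Tsen34 of the tRNA splicing endonuclease, had 7.72, 8.15 and 11.97 scaled FPKM in the controls and 0, 6.90 and 6.81 in the RasV12 replicates. In both the other 2 RasV12 replicates were a little under the lowest control. The same was seen in CG10286, where RasV12 replicate 3 was listed at 0 and the others at 6.48 and 6.45 scaled FPKM, against 6.61 in the lowest control. All 3 genes overlap a more abundant gene, CG3246 for sec5, Trl for CG33260 and CG1041 for CG10286, and fragments in the shared stretch could have been assigned to either.

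In all, 9 of the 54 genes were listed at 0 in at least 1 RasV12 replicate and 45 were above 0 in each of the 6 libraries. rab3-GEF, an activator of the vesicle protein Rab3, also had a 0 and overlaps other genes, and had 3.92, 4.95 and 2.52 scaled FPKM in the controls and 1.17, 1.07 and 0 in the RasV12 replicates. Lim3, a LIM-homeodomain transcription factor known from motor neurons, had 8.23, 15.2 and 7.13 scaled FPKM in the controls and 1.41, 1.78 and 6.88 in the RasV12 replicates. RasV12 replicate 3 nearly reached the lowest control. CG18594 (Pebp1) had 3.78, 4.44 and 0.957 scaled FPKM in the controls and 0, 0.512 and 0.938 in the RasV12 replicates, with the lowest control and the highest RasV12 replicate almost equal. Its values rested on 10, 14 and 1 fragments in the controls and 0, 2 and 3 in the RasV12 replicates.

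The annotations used gave no role to 16 of the 54 genes, among them the gene with the largest difference. CG14273 (chromosome 2L, 8342764 to 8344310) had 6.25, 41.1 and 21.8 scaled FPKM in the controls and 0, 0 and 0.185 in the RasV12 replicates. It was near or at 0 in all RasV12 replicates, but the controls themselves spread widely. Its RasV12 replicates rested on 0, 0 and 1 fragments. The log2 difference was -4.17, but -6.98 with 0.1 added in place of 1 and -2.25 with 5 added, so that its size depends on the value added.

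CG4716 was the most abundant of the unnamed genes (chromosome 2R, 9144088 to 9144951) and had 1318, 1078 and 949.8 scaled FPKM in the controls and 480.0, 194 and 217 in the RasV12 replicates. The mean was 1115 ± 187 scaled FPKM in the controls and 297 ± 159 in RasV12 (SD, n = 3), a log2 difference of -2.02. CG6912 had 118, 155 and 85.8 scaled FPKM in the controls and 27.4, 5.01 and 47.4 in the RasV12 replicates, a log2 difference of -2.53 (chromosome 3R, 10960860 to 10962702). RasV12 replicate 2 was the lowest for both genes.

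Further unnamed genes with large differences were less abundant. CG7900 had 16.2, 24.3 and 18.6 scaled FPKM in the controls and 3.79, 1.37 and 7.34 in the RasV12 replicates. In CG12560 there were 13.9, 19.6 and 15.99 scaled FPKM in the controls and 5.23, 1.14 and 3.44 in the RasV12 replicates. The groups were well apart in both, with log2 differences of -2.17 and -2.15.

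CG34232 had 19.7, 19.02 and 7.93 scaled FPKM in the controls and 4.61, 1.89 and 2.01 in the RasV12 replicates, and CG11378 had 32.4, 46.1 and 23.04 scaled FPKM in the controls and 6.66, 12.9 and 7.81 in the RasV12 replicates. CG6878 read 34.5, 29.3 and 16.8 scaled FPKM in the controls and 7.65, 12.8 and 2.98 in the RasV12 replicates, and it overlaps CG7011, a gene at a similar level. Their log2 differences were -2.08, -1.78 and -1.78, and the lowest control was control replicate 3 in all 3 genes.

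Among the more abundant unnamed genes, CG8654, which the annotation lists as a transmembrane protein (chromosome 2R, 15868574 to 15872262), had 222, 159 and 180.0 scaled FPKM in the controls and 127, 47.7 and 85.1 in the RasV12 replicates. RasV12 replicate 1 was the highest here, in contrast to most genes of the set. CG18853, with a control mean under 10, showed a tight separation at 7.21, 9.44 and 8.84 scaled FPKM in the controls and 1.74, 2.50 and 2.14 in the RasV12 replicates. CG17124 had 120 to 133 scaled FPKM in the controls and 28.6 to 73.97 in the RasV12 replicates, and CG1354 had 75.9 to 94.4 and 31.4 to 47.5. CG15202 and CG7781 were rare, with control means of 3.56 and 10.9 scaled FPKM, and Dat had a control mean of 19.7 with a log2 difference of -1.06. The values of CG15202 rested on 4, 3 and 1 fragments in the controls and 0, 1 and 1 in the RasV12 replicates.

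**Figure D3:**
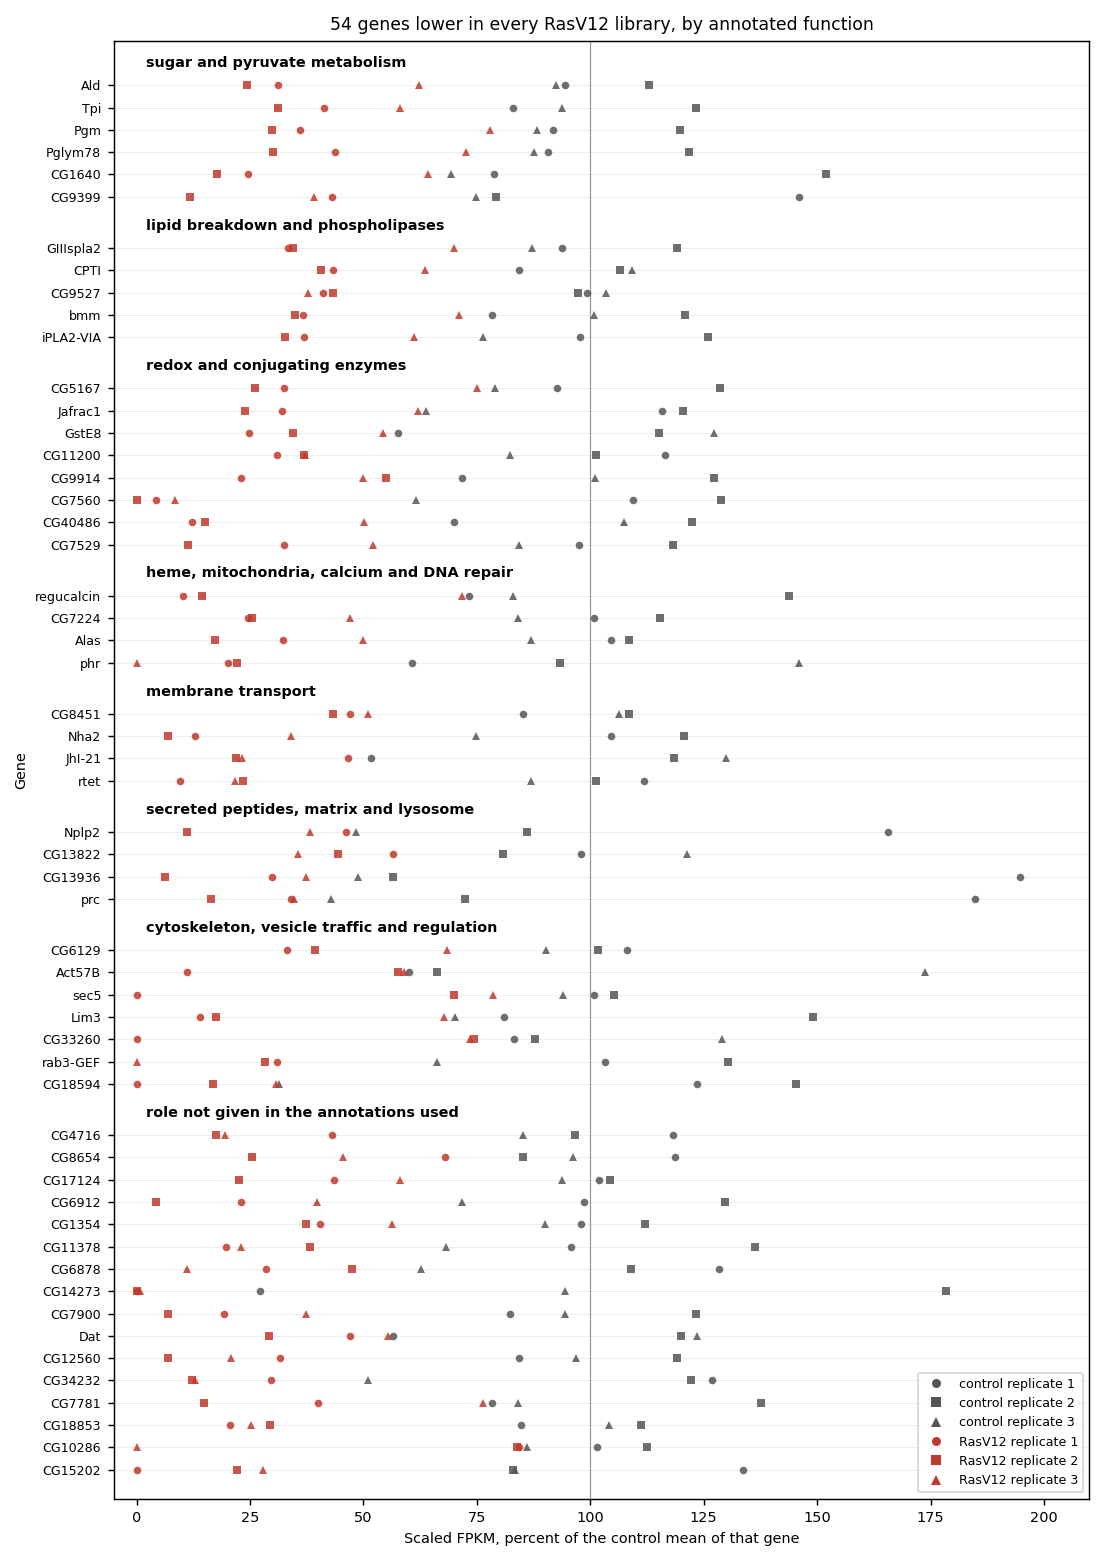
Scaled FPKM of each of the 54 genes in each library as a percentage of that gene's control mean, grouped by annotated function and ordered by control level within a group. Grey points are controls, red points RasV12 replicates, and shapes give the replicate number. No red point lies to the right of a grey point of the same gene, and the red triangles (RasV12 replicate 3) are often the nearest to the controls, as for regucalcin at 71.8%.

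The RasV12 replicates were not equally low. Over the 54 genes the median level left was 31.4% of the control mean in RasV12 replicate 1, 25.0% in replicate 2 and 48.5% in replicate 3. In replicates 1 and 2 the level was under 50% of the control mean in 51 and 49 genes, and in replicate 3 in 29. RasV12 replicate 3 was the highest of its group in 36 of the 54 genes (66.7%), a share of 52.6% among the 536 genes separated lower at any size and of 35.9% among all genes considered. RasV12 replicate 2 was the lowest in 30 of the 54 (55.6%), against 50.4% and 35.3% in those sets. On the control side, replicate 2 was the highest in 33 genes (61.1%, against 36.4% and 29.3%) and replicate 3 the lowest in 32 (59.3%, against 40.1% and 34.2%).

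The pattern varied by function. For the sugar and pyruvate genes the medians were 38.6%, 27.2% and 63.3% in RasV12 replicates 1, 2 and 3, and for the lipid genes 36.9%, 34.9% and 63.7%. The genes with no role given had 30.7%, 22.2% and 26.6%, so that replicate 3 was about as low as the others. RasV12 replicate 3 was the highest of its group in 5 of the 6 sugar and pyruvate genes, in 4 of the 5 lipid genes and in 8 of the 16 genes with no role given. These groups were formed after the values were seen, and the differences among them were not tested.

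**Figure D4:**
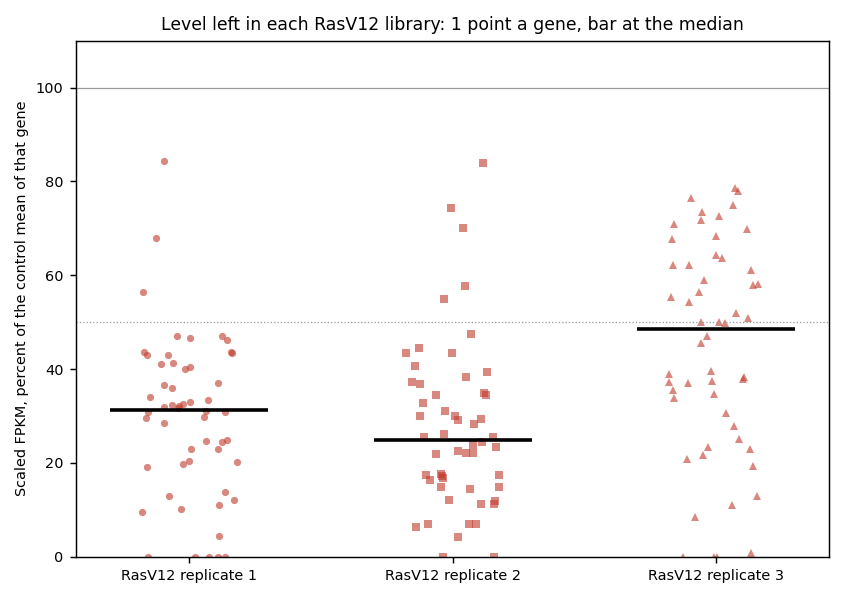
Level left in each RasV12 replicate, as a percentage of the control mean, for each of the 54 genes (1 point a gene, spread sideways for legibility). The black bar is the median, at 31.4%, 25.0% and 48.5%, the solid line marks 100% and the dotted line 50%. Points of replicate 3 reach 78.5%, while 51 of the points of replicate 1 lie under the dotted line.

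The second run of control replicate 3 was not used to choose the genes, but it holds the same sample. Its value lay above the highest RasV12 replicate in 45 of the 54 genes. Run 3A of this sample had to lie above every RasV12 value, so a high number was largely set by the choice of genes. The share over all genes was not worked out. With a merged table of both runs as control replicate 3, 53 genes met the criteria, 52 of them among the 54. With run 3B in its place 57 did, and 43 of these were shared.

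The limit of the set fell within a continuous range. Just inside lay CPTI, Dat, CG8451, prc and Pglym78, with log2 differences of -1.04 to -1.10. Just outside, with the same separation, were CG5270 at -0.99, CG16996 at -0.98, CG42673 at -0.97, Rh5 at -0.96 and CG14225 at -0.94. CG5270, for example, had 43.98, 44.6 and 38.4 scaled FPKM in the controls and 15.04, 22.8 and 26.1 in the RasV12 replicates, and CG14225 had 65.7, 52.97 and 46.3 scaled FPKM in the controls and 24.1, 28.8 and 30.96 in the RasV12 replicates.

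The 54 genes were spread over the large chromosome arms, with 10 on 2L, 11 on 2R, 10 on 3L, 13 on 3R and 10 on X, close to the shares of all genes considered. The nearest were phr and CG18853, 1738 bases apart with no gene between them, and CG7224 and CG12560, 8578 bases apart. CG33260 and bmm were 14652 bases apart, CG7781 and CG14273 17465, and Jafrac1 and CG1640 38609. The spans of the 54 genes had a median of 2340 bases, against 2413 for all genes considered, and 20 of them overlapped another gene.

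Other lists were examined as well. None of 19 tested immune effector genes and none of 13 tested ecdysone response genes was among the 54. As the set was 0.713% of the genes considered, lists of this size would seldom hold any. The immune effectors had a higher mean in RasV12 in all 19 cases, with a median log2 difference of 2.98, and 6 were separated over 2-fold, against 2.23% of all genes. With RasV12 replicate 3 left out, 2 of 18 tested had a lower mean. Of the ecdysone response genes 8 of 13 were below the lowest control in RasV12 replicate 3, against 22.6% of all genes, and 1 in each of replicates 1 and 2, against 27.6% and 31.2%. Testis markers were also higher in the RasV12 replicates, as given above, and their part in the levels of the 54 genes was not tested.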

How the data were processed

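RNA of fat bodies was sequenced in 3 control and 3 RasV12 samples, each from 40 larvae. The authors mapped the reads to the BDGP5 genome with TopHat (version 1.0.14 in the submitters' processing notes) and deposited, for each library, the FPKM of every gene and its bounds as estimated by Cufflinks (0.0.5). Coordinates are those of these tables, counted from 1, and a newer annotation served only for gene names. The authors' Cuffdiff comparisons were not used here. Nothing states that the pooled larvae of a group came from separate crosses, so the spread between replicates may be partly technical.

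FPKM of the 6 libraries were multiplied by 1.02, 1.02 and 1.24 (controls) and by 0.978, 0.832 and 0.993 (RasV12), so that the 75th percentiles over genes above 0 in any library became equal. A value of 1 was added before taking log2, which understates the change of genes at low levels. FPKM are not counts, and the fragments behind a value were worked out from its bounds, taken as 2 standard deviations of a count. They cover counting error only. The filter of a mean of at least 1 was applied to the deposited FPKM. All 7575 genes were fitted with limma 3.58.1 in R 4.3.3 (lmFit, eBayes with trend, no replicate block) on log2(scaled FPKM + 1), with Benjamini-Hochberg adjustment, and counts of that test are given for lists only. Of the 7575 genes 2 were lower and 6 higher at an adjusted p under 0.05 and over 2-fold, and 73 and 176 at an unadjusted p under 0.05. An exact permutation test of 3 against 3 cannot go below 0.10. The fit was tested on simulated data.

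The 54 genes and the 32 lists (21 of pathways and 11 of markers) were chosen with earlier results of these data known. Named with all values were the 15 largest falls, the 15 highest control levels, those in a list and those nearest the limit. Other genes were named within a functional group, formed from annotated names after the values were seen. Tools were Python 3.11.15, pandas 2.3.3, numpy 2.4.6 and matplotlib 3.10.9. No sequence of these genes was used here.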

Additional observations from a re-analysis of the deposited data

How the results depend on the processing

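The number of genes that met the criteria (54) was 65 with 0.1 added in place of 1 and 35 with 5 added, 54 without the filter and 46 with a mean of at least 5, 55 with median of ratios scaling and 26 without scaling. Without scaling the median log2 difference of all genes was 0.20, so that lower genes are given relative to that shift, and list genes lower over 2-fold numbered 6 in place of 12. Leaving out 1 replicate gave 57 to 207 genes, with 207 without RasV12 replicate 3, 121 without control replicate 3 and 85 without control replicate 1. Fewer libraries have to be apart in these fits. Of the 54, 52 were among the 207. With confidence bounds apart 29 genes remained and with zeros left out 45, both chosen after seeing the data. Genes that met the criteria under each of 14 alternatives (other pseudocounts, filters, scalings and tables for control replicate 3, and each replicate left out) numbered 15 (Alas, Ald, CG11200, CG11378, CG12560, CG13936, CG14273, CG4716, CG6912, CG7224, CG7560, CG7900, CG9527, GstE8 and Nha2). In limma over all genes, 2 were lower at an adjusted p under 0.05 and over 2-fold. The number was 4 with 0.1 added or robust eBayes, 0 with 5 added or no scaling, and 1 with no filter, a mean of at least 5, median of ratios, the merged table or run 3B. It was 0 to 25 when a replicate was left out. With a replicate block 0 were lower and 3 higher in place of 6. Deviations from the group means had correlations of 0.088, -0.168 and -0.150 between same-numbered libraries. Differently numbered libraries were not compared, so whether the numbers pair libraries was not tested. Genes higher numbered 5 to 36 when a replicate was left out. At an unadjusted p under 0.05, 73 were lower, 47 without scaling and 43 to 209 when a replicate was left out. No gene of the 54 named with all values by the rule, and none of the 5 just outside, changed sign under any of these settings. Each was chosen with every RasV12 value below every control. Another pseudocount therefore could not change a sign, and leaving out a replicate hardly could, so the constant signs are no evidence of stability. Control replicate 3 had the fewest fragments, which limits rare genes.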
